A study of Mus musculus with 8 samples.

Results

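The ADAM and ADAMTS metalloproteinases were followed in whole mammary tumors of mice in which a neighbouring branch of the metalloproteinase family, the membrane-anchored enzyme Mmp14, had been targeted. The members were a fixed list of 36 somatic genes, made of 13 ADAM-type genes, 18 ADAMTS proteinases and 5 ADAMTS-like genes. All 36 had at least 1 array row with a single gene symbol, among 22180 genes with such rows. For the 4 genes with 2 rows each (Adam15, Adam19, Adamts8 and Adamts14), the brighter row on average was taken. The tumors came from MMTV-PyMT mice, in which the polyoma middle T oncogene is driven by the mouse mammary tumor virus promoter in mammary epithelium. Of the 8 tumors, 4 came from Mmp14(f/f) mice that also carried MMTV-Cre (cKO) and 4 from Mmp14(f/f) mice with no Cre (WT, labelled wild-type although both Mmp14 alleles are floxed). All mice were MMTV-PyMT positive, congenic FVB/NJ and aged 3 to 4 months, with tumors of both inguinal and thoracic origin. Because Cre was driven by the same kind of mammary promoter, stromal and immune cells in the whole tumors would keep their floxed alleles intact where that promoter is silent. The groups differed in the Cre transgene as well as in the targeted gene.

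ADAM proteins are mostly membrane-anchored enzymes with a metalloproteinase and a disintegrin domain, and many act as sheddases that release the outer part of growth factors, cytokines, receptors and adhesion proteins from the cell surface. ADAMTS proteins are secreted relatives with thrombospondin repeats that cut matrix proteins such as the large proteoglycans aggrecan and versican, procollagens and von Willebrand factor. ADAMTS-like proteins have the repeats but no proteinase domain and bind to the microfibril network. In mammary tumors the family is known for the release of epidermal growth factor receptor ligands and for turnover of the provisional matrix around carcinoma cells.

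Signals are given on the log2 scale, on which the median of an array was 3.64 at the lowest and 3.71 at the highest. Mmp14 itself (row 17300279) read 8.86, 9.12, 9.31 and 9.17 in the WT tumors and 7.98, 7.74, 7.44 and 7.72 in the cKO tumors, given throughout in the order of replicates 1 to 4. The groups did not overlap, and Mmp14 fell by 1.40 on the log2 scale (SE 0.13, adjusted p = 0.0444 by limma), so that each of the 8 tumors read as labelled; where the probes lie relative to the floxed part was not analysed here. The call was not firm, since limma's adjusted p was 0.0708 with arrays 1 to 4 against 5 to 8 as a block. With single tumors left out the adjusted p ran from 0.0429 to 0.211, under the threshold without cKO 1 or cKO 3 and above it without cKO 2, cKO 4 or any of the WT tumors. The luminal markers Krt8, Krt18 and Epcam had mean signals of 10.4, 10.5 and 10.6 in WT. Of 12 luminal markers, 9 were lower in cKO, where 43.5% of all rows were. At an unadjusted limma p below 0.05, 1 was lower, where 4.14% of all rows were, and 0 passed the adjusted threshold. Fibroblast markers were lower in cKO tumors on balance (14 of 14 genes, none past the threshold), where 43.5% of all rows were lower. Of the 14, 5 were lower at an unadjusted limma p below 0.05, against 4.14% of all rows. Their mean score over the list ran from 0.04 to 0.47 in WT and from −1.13 in cKO 3 to 0.49 in cKO 4. In bulk tumors, fewer cells of a type and less RNA per cell cannot be told apart.

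No member of the family passed the threshold between cKO and WT tumors. Of the 36 genes, 20 had a higher mean in cKO and 16 a lower one, and the median difference was 0.01 on the log2 scale, against 0.02 over all 23521 rows tested. The differences ran from −0.68 for Adam23 to 0.60 for Adamts5, and 21 of 36 were under 0.2 in size. Limma's smallest adjusted p among the members was 0.211, for Adamts9, where 0.0085% of all rows were past the adjusted threshold. At an unadjusted p below 0.05, limma gave 4 members, or 11.1%, a share near the 9.68% of all rows. All 4 were lower in cKO, namely Adamts9, Adam23, Adamts6 and Adamts12, where 4.14% of all rows were lower and 5.54% higher at that level. The cKO and WT values of 2 members, Adamts9 and Adam23, did not overlap, or 5.56% of members against 5.42% of all rows. Both had every cKO tumor below every WT tumor, as did 1.73% of all rows, and no member had every cKO tumor above, as did 3.68%. With single tumors left out, 3 to 6 members were at an unadjusted p below 0.05 (6 without WT 4, 4 with all tumors), and no member passed the adjusted threshold in any of 15 alternative fits, where the lowest adjusted p of a member was 0.179.

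**Figure D1:**
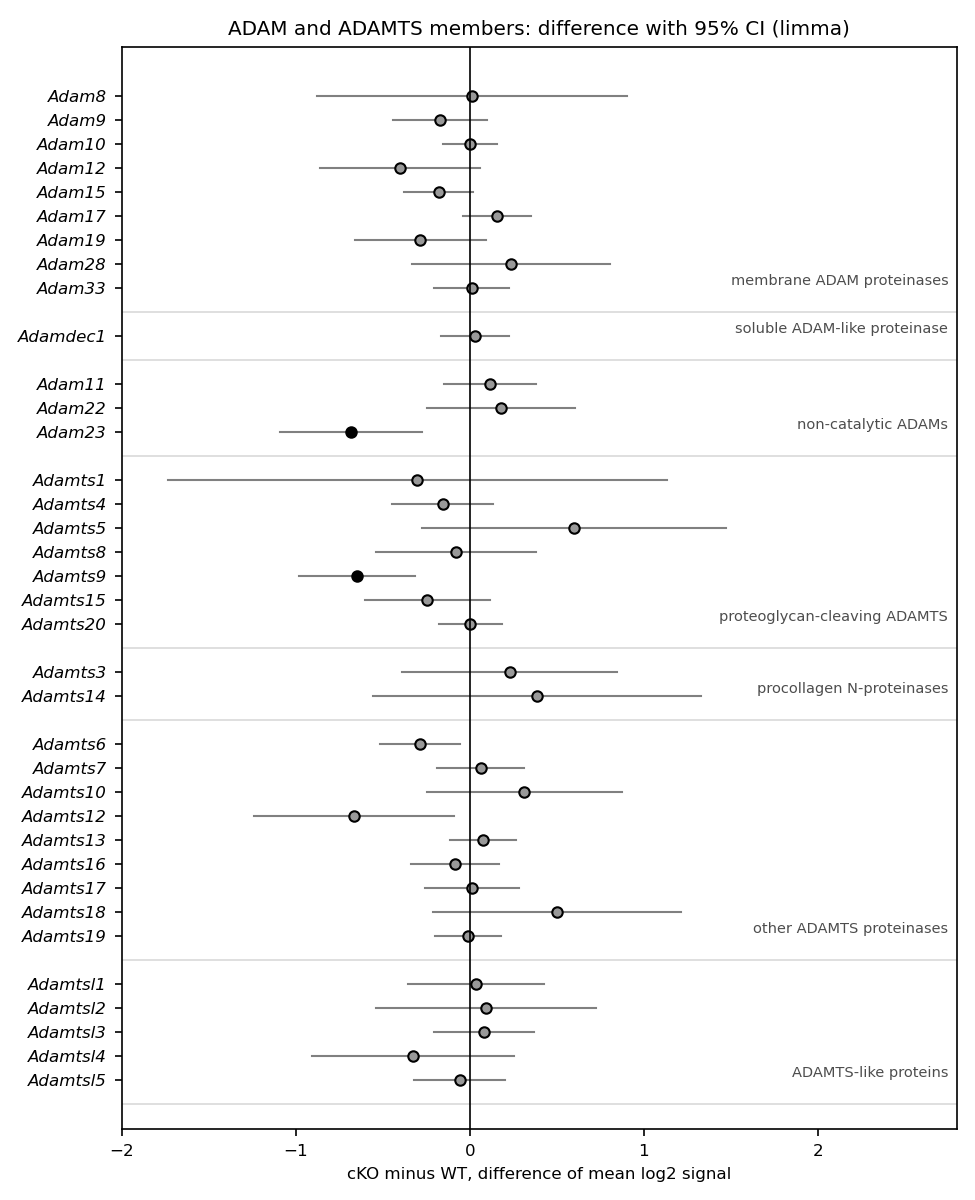
Difference in mean log2 signal between 4 cKO and 4 WT tumors for each of the 36 members, ordered by role, with the 95% confidence interval from limma; black points mark members whose groups did not overlap. Adam23 at −0.68 and Adamts9 at −0.65 are the 2 black points, and most intervals cross 0.

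The ADAMTS enzymes that cut aggrecan and versican held the member with the smallest p. Adamts9 (row 17469136), a secreted enzyme that cuts versican and aggrecan, read 5.41, 4.95, 4.83 and 5.23 in WT and 4.59, 4.29, 4.30 and 4.65 in cKO. All 4 cKO tumors lay below all 4 WT tumors, with the highest cKO value in cKO 4 and the lowest WT value in WT 3. Mean signals (± SD, n = 4 each) were 5.10 ± 0.26 in WT and 4.46 ± 0.19 in cKO. The difference was −0.65 (SE 0.15, adjusted p = 0.211 by limma) and did not pass, and the cKO signal was 63.9% of WT (95% confidence interval 50.7% to 80.4%). The first 4 arrays alone gave −0.74 and the last 4 gave −0.56, and with single tumors left out it ran from −0.74 to −0.55. The fibroblast score was lower in cKO on average, and its part in this difference was not tested.

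Adamts1 and Adamts5, which also cut these proteoglycans and lie next to each other on chromosome 16, varied far more between tumors. Adamts1 (row 17331705), an enzyme known from ovulation and from vessel growth, read 6.23, 5.51, 5.35 and 7.13 in WT and 4.67, 7.67, 5.51 and 5.17 in cKO. It was high in WT 4 and in cKO 2 and low in cKO 1, so that the groups overlapped over most of their range. Its SD over the 8 tumors, 1.03, was the largest of the 36 members and above that of 99.4% of all rows, or of 98.5% of rows whose mean lay within 0.5 of its own. The difference of −0.30 (SE 0.63) had a 95% confidence interval from −1.73 to 1.13, and turned to 0.06 without cKO 1 or WT 4. Adamts5 (row 17331720), the main aggrecanase of mouse cartilage, was even among WT tumors at 3.90, 4.09, 3.92 and 4.04, and uneven among cKO tumors at 4.18, 5.45, 3.47 and 5.25. Of the cKO tumors 3 lay above all WT tumors and cKO 3 lay below them. The difference was 0.60 (SE 0.39, adjusted p = 0.659 by limma), and 0.97 (SE 0.27, adjusted p = 0.360 by limma) without cKO 3 but 0.31 without cKO 2.

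Adamts15, a versican-cutting enzyme, read 5.25, 4.96, 4.92 and 4.77 in WT and 5.05, 4.36, 4.65 and 4.85 in cKO. The groups overlapped and the difference was −0.24 (SE 0.16, adjusted p = 0.662 by limma). Adamts4, another aggrecanase, differed by −0.16 and Adamts8 by −0.08. The brighter of the rows of Adamts8 was at −0.08 and the dimmer at 0.10, neither past the threshold. Adamts20, known from melanoblast survival, differed by 0.0033, with a mean signal of 2.99 in both groups, below the median of the row means of the whole array, 3.67.

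The upstream sequence of 3 of these members is shown because the results turn on them: Adamts9 and Adam23 as the genes whose groups did not overlap, and Adamts1 as the gene that varied most. Each is the 200 bases directly before the annotated start in RefSeq, mouse build GRCm38.p6, read 5′ to 3′ on the strand of the gene. They lie at chr6:92943535-92943734 on the minus strand for Adamts9, chr1:63445691-63445890 on the plus strand for Adam23 and chr16:85803114-85803313 on the minus strand for Adamts1. Capitals mark matches on either strand to the TATA box TATAAA or the GC box GGGCGG.
Adamts9: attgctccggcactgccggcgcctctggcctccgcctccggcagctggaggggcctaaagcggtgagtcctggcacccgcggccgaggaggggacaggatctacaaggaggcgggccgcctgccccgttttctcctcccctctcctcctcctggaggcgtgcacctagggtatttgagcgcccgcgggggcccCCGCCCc
Adam23: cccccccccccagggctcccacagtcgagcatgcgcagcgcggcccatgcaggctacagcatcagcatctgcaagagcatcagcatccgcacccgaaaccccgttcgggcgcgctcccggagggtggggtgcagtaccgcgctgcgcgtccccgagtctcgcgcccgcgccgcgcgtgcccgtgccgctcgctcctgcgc
Adamts1: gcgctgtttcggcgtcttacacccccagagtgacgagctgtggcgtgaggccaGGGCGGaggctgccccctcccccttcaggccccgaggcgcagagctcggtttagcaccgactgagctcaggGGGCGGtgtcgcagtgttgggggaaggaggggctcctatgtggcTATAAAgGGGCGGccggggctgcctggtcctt

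All 3 windows were rich in G and C, at 72% for Adamts9, 74% for Adam23 and 68% for Adamts1, against a median of 53% over 32851 promoter windows of the same length. The Adamts1 window held a TATA box from 32 to 27 bases before the start and 3 GC boxes, and the Adamts9 window a single GC box on the other strand. A TATA box was found in 9.96% of all windows and a GC box in 31.05%. Of the 36 members, 20 had a promoter in the table, and 2 of these held a TATA box and 13 a GC box. The CCAAT box (CCAAT) and the AP-1 site (TGACTCA), also searched on both strands, matched in none of the 3 windows printed. They matched in 5 and 0 of the 20 members and in 29.35% and 3.66% of all windows. These matches describe letters in a window and not binding.

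Among the ADAMs without a zinc-binding catalytic site, which serve as receptors for secreted LGI proteins in nerve tissue, Adam23 differed most. Adam23 (row 17213608) read 4.09, 4.54, 4.02 and 4.19 in WT and 3.87, 3.40, 3.11 and 3.74 in cKO. All 4 cKO tumors lay below all 4 WT tumors, with cKO 3 lowest. Mean signals (± SD, n = 4 each) were 4.21 ± 0.23 in WT and 3.53 ± 0.34 in cKO. The difference of −0.68 (SE 0.18, adjusted p = 0.284 by limma) did not pass, and the cKO signal was 62.3% of WT (95% confidence interval 47.0% to 82.6%). Arrays 1 to 4 and arrays 5 to 8 each gave −0.68, and leaving out cKO 3 gave −0.54. The signals lay near the array's median of 3.67, and both group means lay below 4.31, the median of the row means of the rows tested. Adam11 differed by 0.12 and Adam22 by 0.18. Adam22 was 3.69 in cKO 3 and between 2.70 and 3.01 in the other 7 tumors, and its difference was −0.03 without cKO 3.

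The LGI ligands of these receptors all had higher means in cKO (4 of 4, median 0.15), as did 13297 of all 23521 rows. Of the 4, 3 had a mean signal below the median of the array's row means, 3.67, and Lgi1 and Lgi3 differed by only 0.01 and 0.05. Lgi4, which acts in Schwann cells, differed by 0.26 (SE 0.10, adjusted p = 0.487 by limma). Lgi2 differed by 0.33, and by 0.01 without cKO 4. Markers of nerve and Schwann cells had mean scores from −0.19 to 0.27 in WT and from −0.20 to 0.29 in cKO.

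The other ADAMTS proteinases act on more varied substrates, and 2 of 9 were at an unadjusted p below 0.05, both lower in cKO, where 9.68% of all rows were at that level and 4.14% were lower. Adamts12 (row 17310368), which cuts cartilage oligomeric matrix protein and is known from fibroblasts of tumor stroma, read 6.59, 6.52, 6.09 and 6.32 in WT and 6.22, 5.58, 4.98 and 6.08 in cKO. It was lowest in cKO 3 and cKO 2, and cKO 1 lay within the WT range. The difference was −0.66 (SE 0.25, adjusted p = 0.463 by limma), with the cKO signal at 63.1% of WT, and it was −0.42 without cKO 3. The fibroblast score was also lowest in cKO 3, at −1.13, and in cKO 2, at −0.72, and its part in this difference was not tested. Adamts6 (row 17289602), a regulator of microfibrils and cell junctions, read 3.99, 3.92, 4.10 and 4.10 in WT and 3.66, 3.79, 3.56 and 3.95 in cKO. Only cKO 4 reached into the WT range. The group means, 4.02 in WT and 3.74 in cKO, also lay below 4.31, the median of the row means of the rows tested. The difference was −0.29 (SE 0.10, adjusted p = 0.430 by limma) and ran from −0.36 to −0.23 with single tumors left out.

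Adamts18 (row 17513240), known from mammary and eye development, read 3.01, 2.89, 3.21 and 2.90 in WT and 3.12, 2.90, 3.42 and 4.58 in cKO. The tumor cKO 4 stood well above the other 7, and the difference of 0.50 (SE 0.32) was 0.14 without it. Adamts7, the closest relative of Adamts12, differed by 0.06. Adamts10, a binder of fibrillin microfibrils, differed by 0.31, made up of −0.17 in arrays 1 to 4 and 0.80 in arrays 5 to 8. Adamts13, the von Willebrand factor cutting enzyme made mainly in liver, differed by 0.08. The orphan enzymes Adamts16, Adamts17 and Adamts19 lay between −0.08 and 0.01.

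Of the 9 membrane ADAM proteinases, the sheddases proper, 0 were at an unadjusted p below 0.05 by limma, where 9.68% of all rows were. A count over 9 genes cannot be told from that share. The differences ran from −0.40 for Adam12 to 0.24 for Adam28, and 6 of 9 were under 0.2 in size. Some 95% confidence intervals were wide, from 54.4% to 187% of WT for Adam8 and from 55.0% to 104% for Adam12. Adam10 (row 17519088), which cuts Notch receptors and E-cadherin, read 9.93, 9.93, 9.96 and 9.96 in WT and 9.92, 9.94, 9.90 and 10.02 in cKO. Its difference was 0.0011 (SE 0.07), with a 95% confidence interval that spans 89.9% to 111% of the WT signal, and its SD over the 8 tumors, 0.03, was the smallest of the 36 members. Adam17 (row 17280207), which releases tumor necrosis factor and most ligands of the epidermal growth factor receptor, read 8.41, 8.41, 8.21 and 8.29 in WT and 8.59, 8.42, 8.38 and 8.54 in cKO. Of the cKO tumors 3 lay above all WT tumors, and the difference was 0.16 (SE 0.09, adjusted p = 0.604 by limma), within an interval from 97.3% to 127% of WT. Adam9 (row 17508300), a broad sheddase of epithelia, read 9.48, 9.18, 9.10 and 9.61 in WT and 9.17, 9.18, 9.13 and 9.21 in cKO. WT 1 and WT 4 were high, the cKO tumors were close together, and the difference was −0.17 (SE 0.12, adjusted p = 0.681 by limma).

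Adam12 (row 17497246), a sheddase of tumor stroma and of some carcinoma cells, read 5.24, 5.33, 5.33 and 4.89 in WT and 4.66, 5.20, 4.26 and 5.07 in cKO. The groups overlapped through WT 4, and the difference was −0.40 (SE 0.20, adjusted p = 0.571 by limma), which was −0.22 without cKO 3. Adam15 (row 17407017), an integrin-binding ADAM of epithelium and endothelium, read 7.36, 7.48, 7.63 and 7.39 in WT and 7.33, 7.21, 7.37 and 7.24 in cKO. The groups overlapped by a narrow margin, cKO 3 lying just above WT 1, and the difference was −0.18 (SE 0.09, adjusted p = 0.554 by limma). A dimmer row of Adam15 differed by 0.03. Adam19 (row 17248754), which processes neuregulins, read 4.75, 4.59, 4.27 and 4.01 in WT and 4.36, 3.91, 4.13 and 4.09 in cKO. The difference of −0.28 (SE 0.17) came to −0.54 in arrays 1 to 4 and −0.03 in arrays 5 to 8, and a dimmer row of the gene differed by 0.11.

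Adam8 (row 17497525), a sheddase of leukocytes and invasive tumor cells, read 5.18, 3.91, 4.23 and 5.17 in WT and 4.66, 5.44, 3.72 and 4.73 in cKO. Its difference of 0.01 (SE 0.39) came from wide and overlapping groups, with 0.50 in arrays 1 to 4 against −0.47 in arrays 5 to 8. Adam28, made by lymphocytes and epithelium, differed by 0.24, which was 0.04 without cKO 4, and Adam33, of mesenchymal cells, by 0.01. The soluble relative Adamdec1 (row 17308083), known from macrophages and dendritic cells of the gut, read 3.13, 3.13, 3.33 and 3.06 in WT and 3.11, 3.14, 3.21 and 3.31 in cKO. These signals lay below the array's median of 3.67 in both groups, and the difference was 0.03 (SE 0.09). Macrophage markers were higher in cKO for 9 of 12 genes, with mean scores from −0.37 to 0.08 in WT and from −0.01 to 0.37 in cKO. Of the 12, 7 were higher at an unadjusted limma p below 0.05, against 5.54% of all rows, and 0 passed the adjusted threshold. The part of macrophages in the values of the members was not tested.

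**Figure D2:**
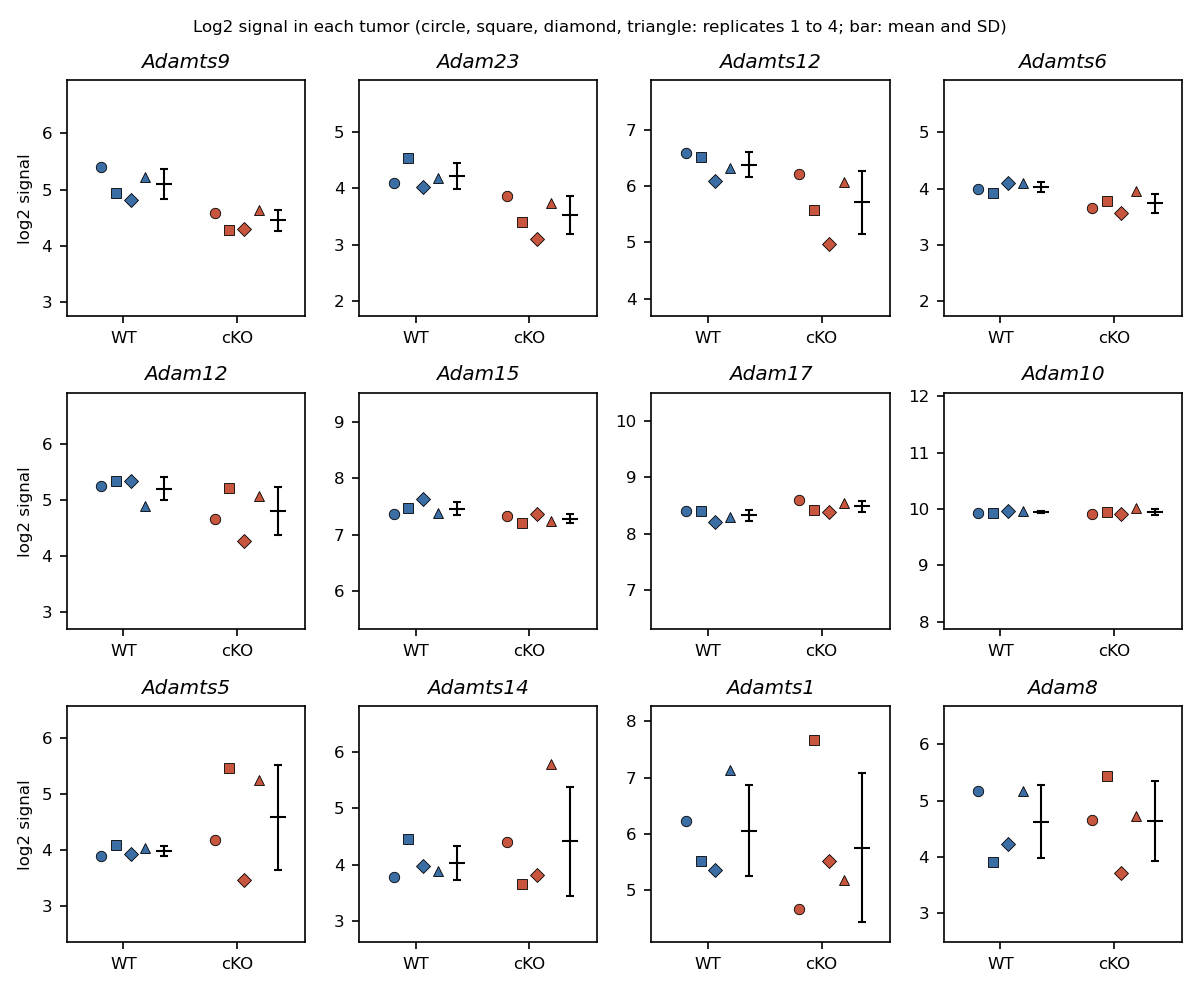
Log2 signal in each of the 8 tumors for 12 members, with blue WT and red cKO points, a different marker for each replicate number, and a black bar for the group mean and SD. Every panel spans the same number of log2 units, so the tight values of Adam10 near 9.94 can be set beside the wide ones of Adamts1, which run from 4.67 to 7.67.

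Both procollagen N-proteinases, which trim the amino ends of fibrillar procollagens, had higher means in cKO without passing. Adamts14 (row 17241181) read 3.78, 4.46, 3.97 and 3.90 in WT and 4.40, 3.66, 3.81 and 5.78 in cKO. Only cKO 4 lay above the WT range, and the difference of 0.39 (SE 0.42) was −0.07 without it. A second row of the gene read 3.87 in cKO 4 and differed by −0.09, so the high value was seen in 1 row alone. Adamts3, which also activates the lymphatic growth factor VEGF-C, differed by 0.23 (SE 0.27), or 0.06 without cKO 2. The genes of their substrates had lower means in cKO. Col1a1 differed by −1.36 (SE 0.38) and did not overlap between the groups, Col1a2 by −1.27 (SE 0.48) and Col3a1 by −1.24 (SE 0.65), with limma's adjusted p between 0.315 and 0.584. Without cKO 3 these differences were −0.99, −0.77 and −0.60.

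The ADAMTS-like proteins, which bind fibrillin and other matrix proteins without cutting them, differed by −0.33 to 0.10, and none was at an unadjusted p below 0.05. Adamtsl2 (row 17368476), a regulator of transforming growth factor beta in the matrix, read 4.75, 5.34, 5.22 and 4.67 in WT and 4.98, 4.93, 4.54 and 5.91 in cKO. The highest value was again that of cKO 4, and the difference of 0.10 (SE 0.28) was −0.18 without it. Adamtsl4, a fibrillin binder needed to hold the lens, differed by −0.33, with −0.66 in arrays 1 to 4 and 0.01 in arrays 5 to 8. Adamtsl1, Adamtsl3 and Adamtsl5 lay between −0.06 and 0.08.

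Across the 36 members the median SD over the 8 tumors was 0.26, against 0.17 over all rows. Counted over the members alone, the extremes were unevenly spread over the tumors. The same count was not made over all rows, so the spread is not shown to be particular to the family. In cKO 3, 10 members had their lowest value of the 8 tumors, among them Adam8, Adam12, Adam23, Adamts5 and Adamts12 at 3.72, 4.26, 3.11, 3.47 and 4.98. In cKO 4, 8 members had their highest value, among them Adamts14, Adamts18, Adamtsl2 and Adam28 at 5.78, 4.58, 5.91 and 4.16, and 0 members their lowest. Among WT tumors the highest values lay most often in WT 3, for 9 members, and the lowest in WT 4, for 7. These genes were named after their values were seen.

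**Figure D3:**
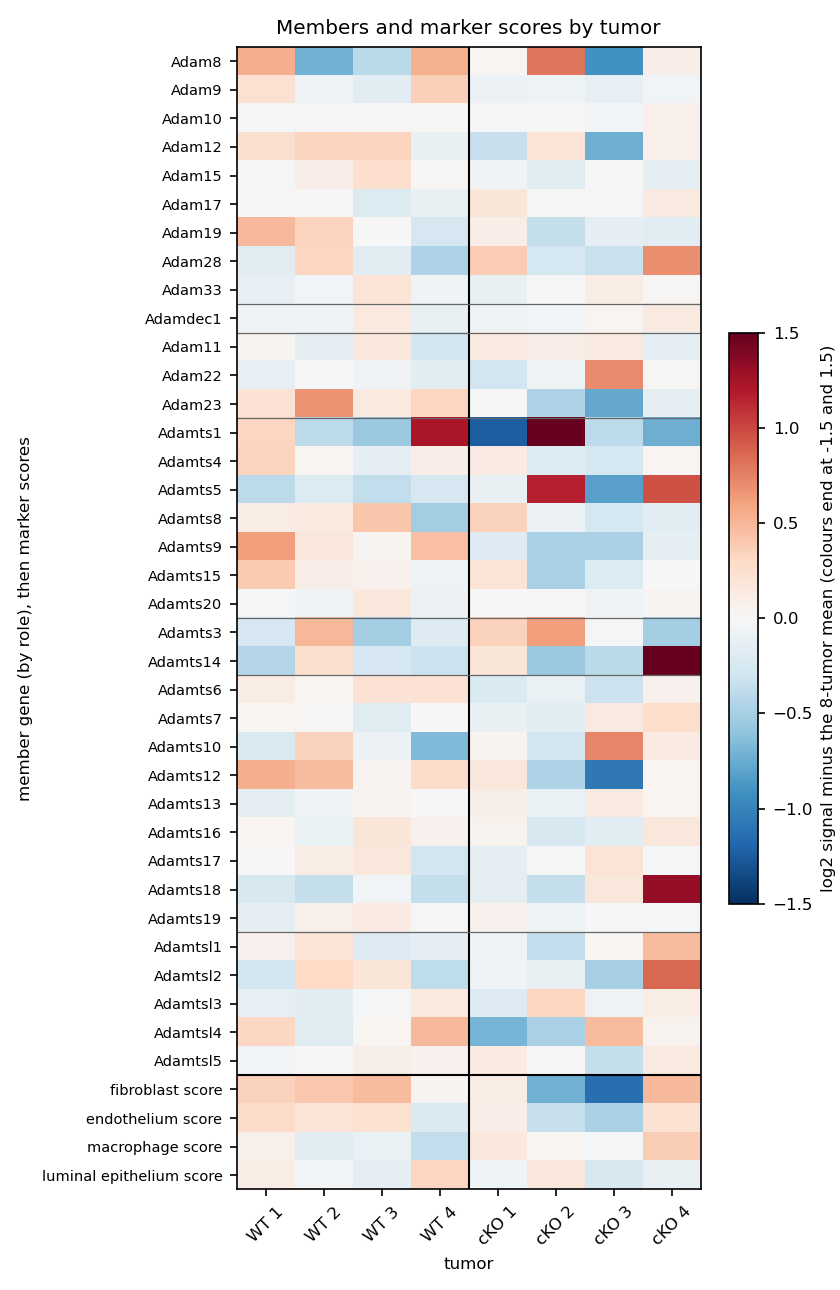
Log2 signal minus the 8-tumor mean for each member (rows, by role) and for 4 marker scores (bottom rows) in each tumor (columns, WT left of the line). The darkest cells are single tumors, such as cKO 2 for Adamts1 (7.67) and cKO 4 for Adamts14 (5.78), more than whole groups.

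The members were set against marker scores of fibroblasts, macrophages, luminal epithelium and endothelium over the 8 tumors. Of 144 relations 0 passed after Benjamini-Hochberg adjustment by the exact permutation test, and 14 had an unadjusted p below 0.05, of which 12 were positive. By score, 6 of the 14 were with fibroblasts, 5 with luminal epithelium, 2 with endothelium and 1 with macrophages, and not all are given below. The same count was not made over all rows, so the 14 are not shown to be particular to the members. Adamts12 correlated with the fibroblast score at r = 0.88 (exact permutation p = 0.0112, adjusted 0.311) and rho = 0.36 (exact permutation p = 0.389, adjusted 0.779). Without cKO 3 and cKO 2, the tumors farthest from the median score, r was −0.16, so the relation rests on those tumors. The same held for Adam23, with r = 0.82 (exact permutation p = 0.0143, adjusted 0.311), rho = 0.40 (exact permutation p = 0.327, adjusted 0.779) and r = −0.05 without them. Adam12, not among the 14, had r = 0.66 with that score (exact permutation p = 0.0621, adjusted 0.447), rho = 0.62 (exact permutation p = 0.115, adjusted 0.605) and r = 0.79 without both tumors. With each group centred on its own mean, r was 0.83 for Adamts12, 0.74 for Adam23 and 0.51 for Adam12. Adamts6, Adamts15, Adamts16 and Adamtsl5, which were among the 14, had r from 0.72 to 0.79 with the fibroblast score. Without both tumors their r lay between −0.08 and 0.26. With the endothelial score, Adamts12 and Adamts15 had r = 0.81 each, and r = 0.07 and 0.60 without cKO 3 and cKO 2.

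With the luminal score, Adam8 had r = 0.82 (exact permutation p = 0.0151, adjusted 0.311) and rho = 0.76 (exact permutation p = 0.0368, adjusted 0.592), and r was 0.76 without WT 4 and cKO 2. Adam9 had r = 0.80 (exact permutation p = 0.0199, adjusted 0.359) and rho = 0.74 (exact permutation p = 0.0458, adjusted 0.592), and r was 0.87 without both. Adamts1 had r = 0.81 (exact permutation p = 0.0147, adjusted 0.311) and rho = 0.64 (exact permutation p = 0.0962, adjusted 0.605), and r was 0.475 without both. Adamts10 went the other way, with r = −0.87 (exact permutation p = 0.0047, adjusted 0.311), rho = −0.79 (exact permutation p = 0.0279, adjusted 0.592) and r = −0.70 without both. With each group centred on its own mean, r was 0.87 for Adam8, 0.77 for Adam9, 0.82 for Adamts1 and −0.85 for Adamts10. Adam17 had r = 0.75 with the macrophage score (exact permutation p = 0.0362, adjusted 0.434) and rho = 0.74 (exact permutation p = 0.0458, adjusted 0.592), and r was 0.69 without WT 4 and cKO 4. With groups centred it was 0.54.

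Genes that act with the family were compared from fixed lists of inhibitors, partners, substrates and further family genes. Of 89 such genes measured, 0 passed limma's adjusted threshold. At an unadjusted p below 0.05 limma gave 20, of which 18 were lower and 2 higher in cKO. That is 22.5% against 9.68% of all rows. The count rested in part on single tumors: it was 8 without WT 1, 11 without cKO 1 or WT 4, 12 without cKO 3 and 13 without cKO 4, and 13 with the replicate number as a block. Of the 89 related genes, 57 had a lower mean in cKO and 32 a higher one. Over all rows tested 43.5% were lower, the share to set beside the counts by list here and below. By list, the LGI ligands were higher in 4 of 4 and the proteoglycan substrates split into 4 higher and 4 lower. The other substrates were lower in 7 of 9. The fibroblast markers were lower in cKO for 14 of 14 genes. The part of fibroblasts in these values was not tested.

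The inhibitors were not among them. Of 6 inhibitors, 0 were at an unadjusted p below 0.05 by limma, where 9.68% of all rows were. A count over 6 genes cannot be told from that share. Timp3, the main tissue inhibitor of ADAM17 and of aggrecanases, differed by −0.41 (SE 0.32), Timp1 by −0.44 (SE 0.29) and Timp2 by 0.09 (SE 0.12). Without cKO 3 these were −0.21, −0.20 and 0.0095, and Timp3 was −0.71 without cKO 2. Among the partners that carry the sheddases to the surface, 7 of 9 were lower. The tetraspanin Tspan15, which directs ADAM10 to cadherins, went against them at 0.38 (SE 0.14, adjusted p = 0.461 by limma), while the related Tspan33 and Tspan17 differed by −0.30 and −0.38. The proprotein convertases, which remove the inhibitory prodomain of many members, were lower in 4 of 4. Pcsk5 differed by −0.65 (SE 0.17, adjusted p = 0.287 by limma) without overlap between the groups, Pcsk7 by −0.30 and Furin by −0.22.

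Of shed growth factors and cytokines 6 of 11 were lower, with a median of −0.11. Kitl, the ligand of the receptor Kit, differed by −0.78 (SE 0.22, adjusted p = 0.315 by limma) and the macrophage growth factor Csf1 by −0.33. Of shed receptors and adhesion proteins 11 of 14 were lower, with Alcam at −0.55 and L1cam at −0.75, or −0.33 and −0.42 without WT 4. Of the proteoglycan substrates, the small proteoglycan Bgn differed by −1.05 (SE 0.38, adjusted p = 0.446 by limma) without overlap, and Dcn by −1.04 (SE 0.70). Without cKO 3 these were −0.67 and −0.27. Among other substrates Fbn2, of microfibrils, differed by −0.57 (SE 0.16, adjusted p = 0.319 by limma). The clearance receptor Lrp1, which takes up several ADAMTS enzymes, differed by −0.46 (SE 0.22), or −0.30 without cKO 3, and its relative Lrp1b by −0.02.

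**Figure D4:**
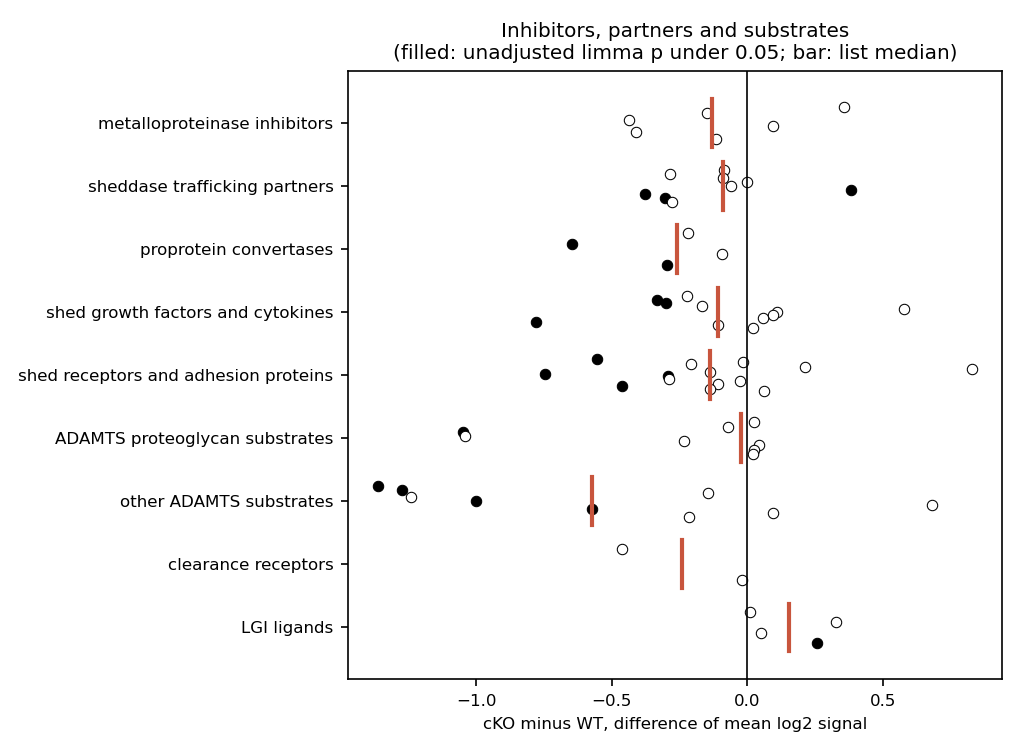
Difference in mean log2 signal, cKO minus WT, for each measured gene of 9 lists of inhibitors, partners, substrates and ligands (points), with the list median as a red bar; filled points have an unadjusted limma p below 0.05. Filled points lie left of 0 except for Tspan15 at 0.38 and Lgi4 at 0.26, and none passed after adjustment.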

How the data were processed

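RNA of 8 whole tumors (400 ng total RNA each) was hybridised to Affymetrix arrays. The authors deposited log2 signals for each array row; per the submitters' processing notes RMA and limma were used, with versions and settings not given in the sources used here. RMA corrects background and scales arrays together, so folds of dim rows can be understated, and no detection call was at hand.

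The array has 41345 rows; the 23521 naming a single gene were tested, 23328 of them with symbols updated through RefSeq (GRCm38.p6) gene identifiers. Differences are cKO minus WT from a two-sided limma fit without covariates (lmFit, then eBayes; limma 3.58.1, R 4.3.3). P-values were Benjamini-Hochberg adjusted across these 23521 rows and called at 0.05. The procedure was tested on simulated data with independent noise. The planted changes were larger than the difference of any member, so the test says nothing about smaller ones. Limma's p-values set a difference against the spread within the groups, with variances moderated across rows. The number of tumors, 8, limits the precision. A marker score is the mean over a list of each gene's signal minus its own 8-tumor mean, and scores were related to members by exact two-sided permutation of tumors.

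Members given with all 8 values were those without overlap, those of smallest p up to 12, Adam10, Adam17 and the member of largest SD in each role; related lists give up to 2 genes of smallest p, and others were named after their values were seen. Members and lists were chosen with earlier results of these data known. Alternatives were quantile normalization, a median shift, a filter on dim rows, a trended and robust variance, averaging a gene's rows, array and replicate blocks, and leaving out each tumor.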

Additional observations from a re-analysis of the deposited data

Results flagged for a closer look

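Among groups of 4 tumors, single values far from the other 3 were looked for by Dixon's ratio in 100 groups of members, Mmp14 and marker scores, where chance marks about 1 in 20 groups. It marked 4. Adam11 was 4.07 in cKO 4, with the other cKO tumors between 4.32 and 4.35. Adamts7 was 4.92 in WT 3, with the others between 5.10 and 5.12. The endothelial marker score was −0.21 in WT 4, with the others between 0.21 and 0.29, and the adipocyte score was 0.07 in WT 4, with the others between −0.10 and −0.07. Of the 4, 2 were among the 72 groups of members.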

How the results depend on the processing

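No member passed in any of the 15 alternatives, and Adamts9 and Adam23 had an unadjusted limma p below 0.05 in 15 of 15, Adamts6 and Adamts12 in 12 of 15. The number of members at that level was 4 in every alternative that kept all tumors. The difference of Mmp14, −1.40 with arrays 1 to 4 against 5 to 8 as a block and with the replicate block alike, then had limma's adjusted p of 0.0708 and 0.354; with single tumors left out it ran from −1.48 to −1.30. The labels do not say whether the replicate number marks a pairing. Deviations of same-numbered tumors correlated between −0.24 and 0.29, which with so few tumors cannot decide it. With the replicate number as a block 0 rows of the array passed by limma, with 1898 at an unadjusted p below 0.05.

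The sign held in all alternatives for 20 of 36 members. Near 0, Adamts20 turned to −0.0017 after quantile normalization, Adamts19 to 0.0052 after a median shift and Adamts8 to 0.0117 with its rows averaged. With single tumors left out the sign of 16 members turned, with ranges of −0.25 to 0.32 for Adam8, −0.0230 to 0.0147 for Adam10, −0.0250 to 0.306 for Adam22, −0.0277 to 0.0820 for Adam33, −0.0079 to 0.0861 for Adamdec1, −0.94 to 0.0603 for Adamts1, −0.0148 to 0.13 for Adamts7, −0.26 to 0.0454 for Adamts8, −0.0690 to 0.64 for Adamts14, −0.0810 to 0.0700 for Adamts17, −0.0582 to 0.0299 for Adamts19, −0.0258 to 0.0550 for Adamts20, −0.12 to 0.17 for Adamtsl1, −0.18 to 0.28 for Adamtsl2, −0.0120 to 0.16 for Adamtsl3 and −0.11 to 0.0510 for Adamtsl5. Lrp1b ran from −0.0411 to 0.0161. The filter on dim rows left 27 members to test. The causes of these turns were not tested.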

Other observations

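Family genes outside the 36, mostly ADAMs known from testis, gave 22 genes with a row of their own, of which 19 had a mean below the median of the array's row means, 3.67. None passed the adjusted threshold by limma, and 2 of 22 were at an unadjusted p below 0.05, a share near the 9.68% of all rows. Papln, a basement membrane relative of the ADAMTS proteins, had mean signals of 8.50 in WT and 7.65 in cKO, a difference of −0.85 (SE 0.25, adjusted p = 0.3285 by limma). Thsd4, an ADAMTS-like microfibril protein, had 6.11 and 5.66, a difference of −0.45 (SE 0.19, adjusted p = 0.505 by limma).

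Among the members, 3 pairs have no other protein-coding gene between their starts. Over the 8 tumors Adamts15 and Adamts8 had r = 0.50 (exact permutation p = 0.206, adjusted over the 3 pairs 0.437) and rho = 0.62 (exact permutation p = 0.115, adjusted 0.345), and r = 0.79 without cKO 2 and WT 1. Adamts1 and Adamts5 had r = 0.33 (exact permutation p = 0.437, adjusted 0.437) and rho = −0.10 (exact permutation p = 0.840, adjusted 0.840), and r = −0.36 without cKO 2 and WT 4. Adamdec1 and Adam28 had r = 0.32 (exact permutation p = 0.429, adjusted 0.437) and rho = 0.29 (exact permutation p = 0.501, adjusted 0.751), and r = −0.04 without WT 3 and cKO 4.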
